A study of Mus musculus with 4 samples.

Results

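Dividing cells can be recognised by the transcripts they make to copy their DNA and to separate it. Described here are 40 mouse genes of DNA replication and mitosis, chosen as a fixed list of symbols and all found among the 31053 genes of the count matrices. They fall into 13 genes of S phase, 22 genes of G2 and mitosis (G2/M), and 5 broad genes that dividing cells make in quantity but that resting cells make too. The study sequenced single cells from pancreatic tumours of C57BL/6 mice by the 10x 3′ method. Orthotopic B6KPC3 tumours, which are grown in the pancreas from a mouse pancreatic cancer line, were 7 days old when treatment began. Mice then received AT38, a compound given by code name only, at 30 mg/kg per day as a pair of intraperitoneal injections daily for 7 days, or its vehicle alone, 1% carboxymethyl cellulose in water. Cells were enriched for the leukocyte marker CD45 by sorting, and each of the 4 libraries (vehicle 1, vehicle 2, AT38 1 and AT38 2) pooled 4 mice. The library is therefore the replicate. The p-values set group differences against the spread of pooled libraries, which may be less than the spread of mice.

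The S genes act at the replication fork or in the supply of its building blocks. Mcm2 to Mcm7 encode the subunits of the helicase that unwinds DNA, Gins2 a part of its activating complex, Pcna the sliding clamp that holds the polymerase, and Pclaf a protein that binds the clamp. Rrm1, Rrm2, Tyms and Tk1 supply deoxynucleotides. Among the G2/M genes, Cdk1 with Ccna2, Ccnb1 and Ccnb2 forms the kinase that starts mitosis, and Plk1, Aurka and Aurkb are further mitotic kinases. Top2a untangles chromosomes, Mki67 coats them and is the standard proliferation antigen, and Cenpa, Cenpe, Cenpf, Bub1 and Bub1b belong to the centromere and its checkpoint. Tpx2, Nusap1, Kif11, Kif23 and Prc1 build the spindle and its midzone, Birc5 works with Aurkb, and Cdc20 and Ube2c serve the ubiquitin ligase that ends mitosis. The broad genes encode a microtubule regulator (Stmn1), tubulins (Tubb5 and Tuba1b), a chromatin protein (Hmgb2) and a histone variant (H2afz). Transcription of S genes is known to be driven by E2F factors through sites of their own, and that of G2/M genes by the DREAM and B-MYB complexes through CHR elements and neighbouring CCAAT boxes.

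The promoters of the 2 groups differed in how often they carried E2F and CHR words. Windows are printed for 3 S genes, 4 G2/M genes and 1 broad gene whose values recur below. Each window runs from 250 bases before to 50 bases after the RefSeq start of the gene (GRCm38.p6). Capitals mark every match, on either strand, to the E2F words TTTGGCGC, TTTCGCGC and TTCCCGCC (whose other strand reads GGCGGGAA), to the CHR word TTTGAA, and to the CCAAT word. Matches that touch or overlap, as TTTGGCGC and TTTCGCGC can on opposite strands, appear as 1 run of capitals.
Mcm6 (chr1:128359656-128359955, minus strand): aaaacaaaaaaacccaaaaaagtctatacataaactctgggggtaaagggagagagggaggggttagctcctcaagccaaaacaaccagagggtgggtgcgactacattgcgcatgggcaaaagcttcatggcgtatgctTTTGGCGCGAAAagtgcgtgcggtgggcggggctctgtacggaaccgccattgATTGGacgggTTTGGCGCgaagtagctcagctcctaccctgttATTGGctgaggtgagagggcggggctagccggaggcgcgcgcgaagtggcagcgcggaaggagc
Mcm5 (chr8:75109259-75109558, plus strand): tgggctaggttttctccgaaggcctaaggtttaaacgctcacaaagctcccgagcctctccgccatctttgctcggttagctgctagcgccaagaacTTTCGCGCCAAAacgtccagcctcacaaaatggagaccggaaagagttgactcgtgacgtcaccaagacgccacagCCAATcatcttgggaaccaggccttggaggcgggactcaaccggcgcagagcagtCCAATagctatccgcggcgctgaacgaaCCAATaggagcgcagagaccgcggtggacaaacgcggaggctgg
Pcna (chr2:132253131-132253430, minus strand): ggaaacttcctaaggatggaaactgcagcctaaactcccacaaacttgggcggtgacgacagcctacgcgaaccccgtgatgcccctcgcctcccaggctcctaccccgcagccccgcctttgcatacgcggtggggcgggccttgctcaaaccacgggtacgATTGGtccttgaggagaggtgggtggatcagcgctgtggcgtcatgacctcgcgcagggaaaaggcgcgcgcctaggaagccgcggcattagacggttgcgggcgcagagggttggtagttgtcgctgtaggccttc
Top2a (chr11:99024140-99024439, minus strand): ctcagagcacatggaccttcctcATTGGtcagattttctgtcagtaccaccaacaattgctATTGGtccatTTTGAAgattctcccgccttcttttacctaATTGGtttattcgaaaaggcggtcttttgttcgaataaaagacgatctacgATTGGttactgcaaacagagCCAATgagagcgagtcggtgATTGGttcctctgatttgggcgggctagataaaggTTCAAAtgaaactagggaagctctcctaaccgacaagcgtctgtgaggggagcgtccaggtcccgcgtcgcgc
Mki67 (chr7:135716330-135716629, minus strand): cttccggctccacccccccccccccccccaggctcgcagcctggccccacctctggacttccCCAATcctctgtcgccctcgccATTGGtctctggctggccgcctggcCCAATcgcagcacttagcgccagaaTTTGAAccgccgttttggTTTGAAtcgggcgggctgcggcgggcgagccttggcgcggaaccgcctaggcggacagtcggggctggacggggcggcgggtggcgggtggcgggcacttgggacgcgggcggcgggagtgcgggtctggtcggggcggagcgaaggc
Cdc20 (chr4:118437294-118437593, minus strand): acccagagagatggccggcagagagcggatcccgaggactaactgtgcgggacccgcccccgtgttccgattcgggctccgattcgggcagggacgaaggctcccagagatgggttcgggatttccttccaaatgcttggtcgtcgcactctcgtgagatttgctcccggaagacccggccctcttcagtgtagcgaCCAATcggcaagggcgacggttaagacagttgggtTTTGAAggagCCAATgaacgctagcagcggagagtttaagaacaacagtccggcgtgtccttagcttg
Ube2c (chr2:164769679-164769978, plus strand): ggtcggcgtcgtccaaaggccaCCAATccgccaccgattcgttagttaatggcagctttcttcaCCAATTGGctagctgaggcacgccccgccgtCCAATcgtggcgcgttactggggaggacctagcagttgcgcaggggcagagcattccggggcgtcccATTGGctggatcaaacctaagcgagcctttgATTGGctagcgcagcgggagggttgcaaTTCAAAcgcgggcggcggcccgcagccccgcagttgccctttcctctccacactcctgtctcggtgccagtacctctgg
Hmgb2 (chr8:57511593-57511892, plus strand): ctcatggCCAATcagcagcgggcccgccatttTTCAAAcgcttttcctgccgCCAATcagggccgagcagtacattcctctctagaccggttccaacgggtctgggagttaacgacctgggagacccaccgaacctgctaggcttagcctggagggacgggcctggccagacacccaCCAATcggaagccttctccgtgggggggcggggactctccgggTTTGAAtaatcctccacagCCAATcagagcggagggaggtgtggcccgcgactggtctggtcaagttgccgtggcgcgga
A window was found in RefSeq for 34 of the 40 genes. Mcm4, Gins2, Ccna2, Tpx2, Aurkb and Stmn1 had no entry. An E2F word stood in 6 of 11 S windows (54.5%: Mcm3, Mcm5, Mcm6, Mcm7, Rrm1 and Pclaf), in 1 of 19 G2/M windows (5.26%, Cdk1) and in 0 of 4 broad windows, against 3.39% of the windows of 27025 genes. The printed window of the S gene Pcna holds no E2F word. The CHR word stood in 14 of 19 G2/M windows (73.7%), in 1 of 11 S windows (9.09%, Mcm2) and in 1 of 4 broad windows (Hmgb2), against 20.2% of all. CCAAT was common everywhere, in 17 of 19 G2/M windows, 9 of 11 S windows and 41.1% of all. Both CHR and CCAAT were present in 14 of 19 G2/M windows and in 8.97% of all windows. These are matches of letters in short windows, and no binding was measured.

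The libraries held 3543 to 6211 barcodes and 24294215 to 34386076 UMIs (unique molecular identifiers, 1 per captured transcript), and 2903 to 4683 cells passed the filters. Library pairs shared 0 to 8 barcodes. Cells were clustered without the genes of the cell cycle and each cluster was named from marker genes, so names carry "-like". The 13 named classes with at least 20 cells in every library ranged from mast- or basophil-like cells, with 22 to 31 per library, to neutrophil-like cells, with 833 to 1667. Smaller named classes (gamma-delta T-, ILC2-, acinar- and fibroblast-like cells) were not described further, and 7.07% to 10.8% of kept cells fell in clusters left unnamed. CD8 T-like cells expressed their 5 markers at 3610 to 3858 CPM (UMIs per 1000000 UMIs of the class) in each library, against 4.98 to 12.3 for 8 B cell markers. The marker lists of T cells share genes: the CD4 T cell list summed to 2341 to 2540 CPM in CD8 T-like cells and the Treg list to 1807 to 1949, and the CD8 T cell list to 2112 to 2256 in conventional CD4 T-like cells. The epithelial-like class was less pure: beside 2347 to 4360 CPM of 6 epithelial markers it held 655 to 2366 of 6 fibroblast markers, in all 4 libraries.

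A cell was called cycling when it held at least 3 UMIs from at least 2 of the 35 S and G2/M genes after its counts were thinned to 1000 UMIs, which puts shallow and deep cells on equal terms. Of 13459 cells with that depth, 504 held 5 or more phase-gene UMIs and 8678 held none. CD8 T-like cells supplied 293 of the cycling cells out of 1503 (19.6% ± 2.44, SD over 4 libraries). The cross-presenting dendritic cells named cDC1-like had the highest share, 24.6% ± 3.66 (55 of 227 cells). Epithelial-like cells stood at 18.1% ± 7.63 (38 of 213), mast- or basophil-like cells at 16.6% ± 4.45 (18 of 106) and regulatory T (Treg)-like cells at 11% ± 4.76 (31 of 279). The shares of cDC2-like cells (8.88% ± 1.60), NK-like cells (7.43% ± 0.519), mature dendritic cells (6.23% ± 4.18), conventional CD4 T-like cells (5.83% ± 1.02), macrophage-like cells (5.78% ± 0.129) and B cells (3.63% ± 1.79) were lower. Neutrophils, which leave the cycle before they enter the blood, stood at 0.477% ± 0.298 (18 of 4191). Of these 18, 6 lay among the 65 cells of a cluster led by granule genes (Ngp, Camp and Ltf) and 12 among the other 4126. Their median depth was 1956 to 2316 UMIs per cell against 5149 to 5836 in CD8 T-like cells, before thinning. None of 553 monocyte-like cells was called, and 0 counts allowed a share of up to 3.13% in the library with the fewest of them, vehicle 1 (3 counts, counting error only). In some classes the cycling cells held more T cell transcripts. The CD8 T cell list was at 660 CPM in cycling and 397 in other cells of the 3 dendritic classes together. In B cells it was at 495 and 51.5, and in NK-like cells it was lower, at 113 and 210. At least 2 of its genes were found in 44.6% and 22.7% of the dendritic cells and in 11.9% and 0.846% of the B cells. Whether barcodes holding 2 cells added to the cycling shares was not tested.

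**Figure D1:**
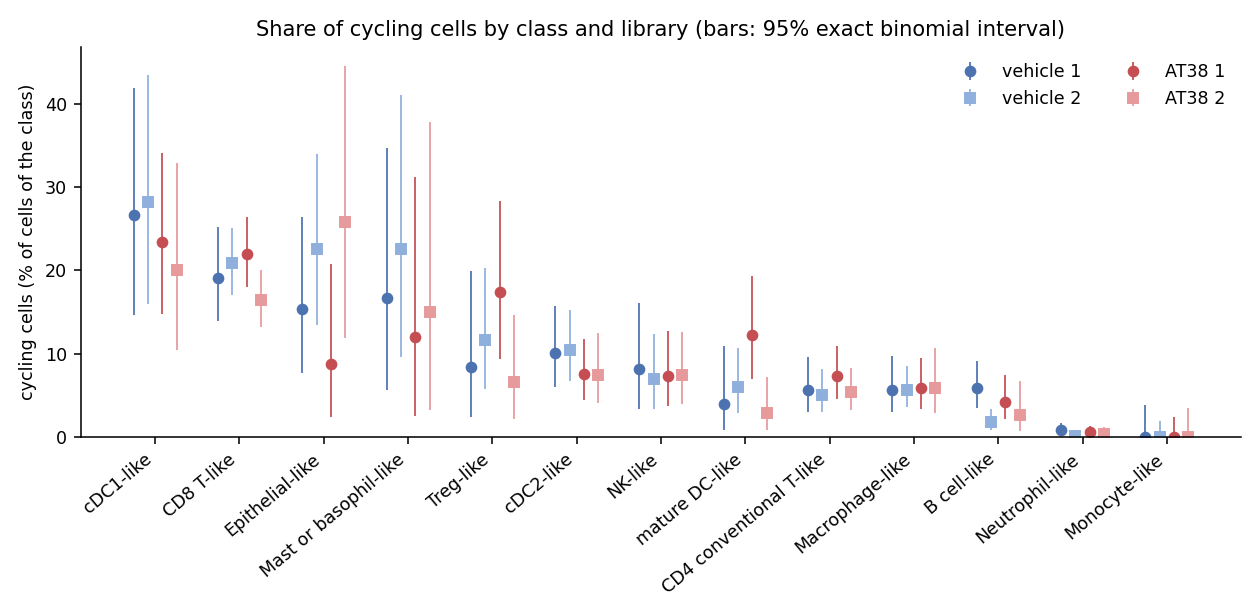
Share of cells called cycling (y axis, percent of the cells of a class after thinning to 1000 UMIs) in each of the 4 libraries, by class (x axis), with bars for the 95% exact binomial interval, which covers counting error only. CD8 T-like cells lie between 16.4% and 22% and neutrophils between 0.128% and 0.836%.

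The level of each gene, in CPM, did not follow the cycling shares in every class. The cDC1-like cells, with the highest share, had the highest mean only for the broad gene H2afz. Of the 13 S genes, 11 had their highest mean in CD8 T-like cells. For 3 of these, every CD8 library lay above every library of the next class: Pcna at 209.9 ± 9.73 (next, Treg-like cells at 148.2 ± 25.3), Mcm5 at 119.1 ± 3.82 (cDC1-like, 82.5 ± 27.3) and Rrm1 at 155.3 ± 13.4 (NK-like, 89.1 ± 8.97). Mcm4 was the exception among the helicase subunits, with its highest mean in cDC2-like cells (117.5 ± 18.4, apart from CD8 T-like cells at 89.8 ± 3.16). Gins2 was highest in epithelial-like cells at 18.6 ± 2.00, where it overlapped with cDC1-like and CD8 T-like cells.

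The G2/M genes were divided between 2 classes. Of the 22, 11 had their highest mean in CD8 T-like cells, 10 in epithelial-like cells and 1 (Kif23) in NK-like cells. Kif11 (93.7 ± 11.8) and Aurkb (36.5 ± 5.38) were highest in CD8 T-like cells with no overlap with the next class, Treg-like cells (50.4 ± 18.4 and 23.5 ± 7.84). Top2a at 328.6 ± 46.2, Mki67 at 228.6 ± 54.5 and Cenpa at 208.6 ± 40.1 were also highest in CD8 T-like cells but overlapped with Treg-like cells. Epithelial-like cells led without overlap for Ube2c, at 397.3 ± 147 against 162.9 ± 28.8 in CD8 T-like cells, for Ccnb1 at 70.4 ± 38.2 against 29.2 ± 5.90, and for Aurka at 32.3 ± 10.3 against 16.3 ± 3.47. Among the broad genes, Stmn1 (366.9 ± 48.7), Hmgb2 (2083 ± 163), Tubb5 and Tuba1b were highest in CD8 T-like cells and H2afz in cDC1-like cells (2192 ± 176). The levels of different genes are counts of 3′ tags, so they are set side by side per transcript captured and were not divided by length.

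Summed over genes, S and G2/M ordered the classes differently. The S sum was 1533 ± 117 CPM in CD8 T-like cells, above all libraries of the next class (cDC1-like, 1082 ± 342), and was 554 ± 12.1 in epithelial-like cells. The G2/M sum was 1966 ± 341 in CD8 T-like cells and 1811 ± 717 in epithelial-like cells, which overlapped. Treg-like cells followed at 1311 ± 473 and cDC1-like cells at 1004 ± 278. Neutrophils (131 CPM) and monocyte-like cells (89.7) closed the G2/M order, as they did the S order (180 and 169). Since the classes were named from the same cells, these differences between classes are a description. In a class sum, fewer cycling cells and less RNA per cycling cell cannot be told apart.

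**Figure D2:**
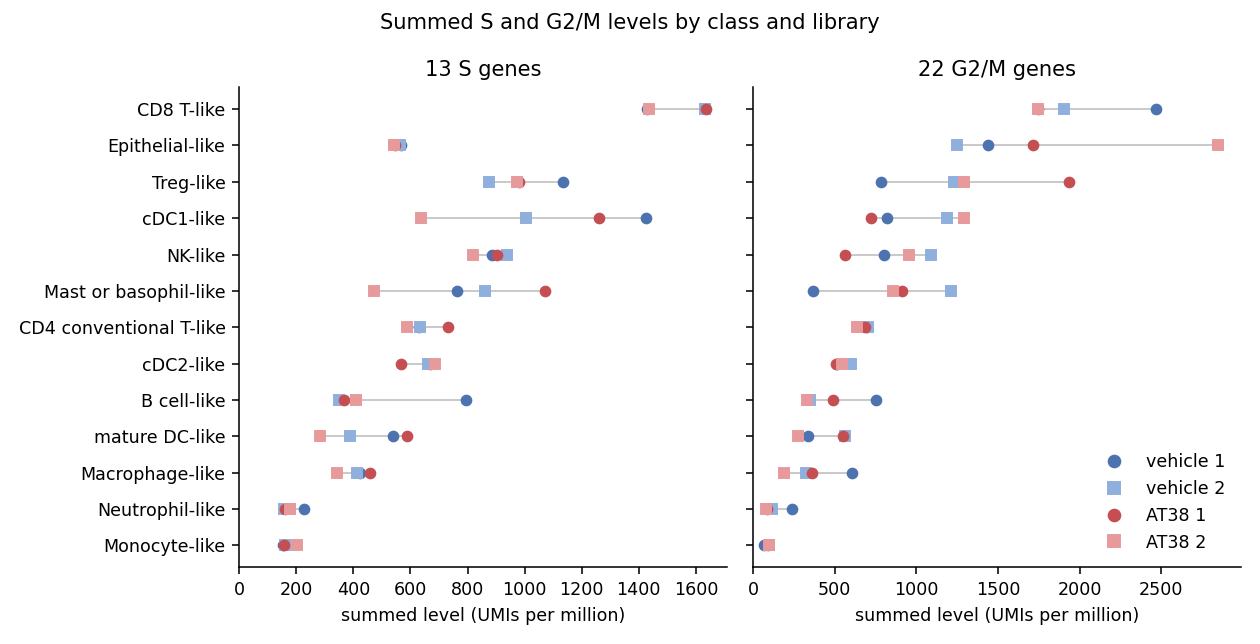
Summed level of the 13 S genes and of the 22 G2/M genes (x axes, CPM of the class, linear from 0) in each library, by class (y axis). CD8 T-like cells have the highest mean in both panels. Epithelial-like cells are near the top of the G2/M panel, at a mean of 1811, but at 554 in the S panel. The highest single library of the G2/M panel is AT38 2 of the epithelial-like cells, at 2848.

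Within CD8 T-like cells the genes were concentrated in a minority. Of 1503 thinned cells, 613 held no phase-gene UMI, 394 held 1, 198 held 2 and 187 held 5 or more, up to 28. Cells near the threshold were not rare: beside the 198 with 2 UMIs, just below it, 62 held 3 UMIs and 49 held 4. Top2a was detected in 11.6% of thinned CD8 T-like cells and in 0.525% of neutrophils, and Mki67 in 8.38% and 1.15%. Mcm5 was detected in 5.99% and 0.477%, Ube2c in 4.99% and 0.239%, and Pcna in 14% and 7.85%. The cells called cycling held 44.1% to 97.5% of the thinned UMIs of each S gene (median 63.1%) and 48.7% to 100% of those of each G2/M gene (median 89.2%). The low end was Mcm4 for the S genes and Cenpa for the G2/M genes. The call uses these 35 genes, so the shares describe it and do not test it. For the broad genes, which the call does not use, the cycling cells held 42.6% (H2afz) to 85.0% (Stmn1) of the UMIs.

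The cycling cells of the class carried T cell transcripts. Of the 293 cells, 273 (93.2%) had a UMI of Cd8a or Cd8b1, the co-receptor chains, 22 (7.51%) had Cd4, 9 (3.07%) had Foxp3, the Treg transcription factor, and 1 had the NK receptor gene Ncr1. Macrophage markers summed to 71.9 CPM in cycling and 98.9 in other CD8 T-like cells, and B cell markers to 7.64 and 8.15. The cDC1 list was at 225 and 202 CPM, and the epithelial list at 50.4 and 41.6. Cells with at least 2 markers of another type were more frequent among the cycling cells, which are deeper: 20.1% against 9.83% for macrophage markers, 27.3% against 10.1% for neutrophil markers and 33.8% against 15.2% for those of mature dendritic cells. A single cluster of the 5 that made up the class held most of the cycling cells: 188 of its 408 cells were cycling (46.1%), against 56 of 716 (7.82%) in the most numerous cluster and 45 of 328 (13.7%) in the next. That cluster made up 30.5% and 34.9% of CD8 T-like cells with vehicle and 19.9% and 24.4% with AT38. Its share of cycling cells was 39.7% and 41.5% with vehicle and 57.0% and 47.9% with AT38.

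Both phases were present in most of these cells. Of 293 cycling CD8 T-like cells, 234 (79.9%) held UMIs of S and of G2/M genes, 46 held S genes only and 13 held G2/M genes only. Cells with S genes only were 10.3% and 10.3% of the cycling cells in the vehicle libraries and 19.3% and 20.3% in the AT38 libraries. The median depth of the cycling cells before thinning was 12481 UMIs.

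Other genes of the cycle and of quiescence differed between cycling and other CD8 T-like cells in ways the call did not use, given here as levels with no test because the cells were selected. The broad gene Stmn1 stood at 870.1 ± 140.3 CPM in cycling cells and 55.6 ± 21.1 in other cells (mean ± SD, 4 libraries), and Hmgb2 at 4292 ± 493 and 719 ± 49.8. Foxm1, a transcription factor of G2/M genes, stood at 66.5 ± 22.8 and 5.03 ± 1.44, and Ccne1, the cyclin that opens S phase, at 20.2 ± 1.51 and 3.51 ± 2.48. Cdk2, the partner of cyclin E, was at 66.7 ± 2.38 and 17.4 ± 2.92, and Cdk4, a partner of D cyclins, at 126 ± 16.4 and 53.9 ± 7.65. The D cyclin gene Ccnd2 went the other way, at 165 ± 39.6 in cycling and 261 ± 28.4 in other cells, lower in all 4 libraries. So did Cdkn1b, which encodes the inhibitor p27, at 77.8 ± 17.1 and 148 ± 8.37, and Klf2, a factor of resting T cells, at 84.8 ± 40.2 and 240.1 ± 34.6. Cdkn1a, which encodes the inhibitor p21, was at 46.2 and 52.8 and was higher in 1 of 4 libraries.

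By list, all 21 compared genes of DNA synthesis at the fork, 13 of 13 of origin licensing and firing, 22 of 22 of spindle and cytokinesis, 15 of 15 of kinetochore and checkpoint, 9 of 9 of condensin and cohesin and 8 of 8 of the E2F, MYB and FOXM1 regulators were higher in cycling cells in all 4 libraries. Over all 8415 genes compared, 24.7% were. Of 10 quiescence-associated genes 8 were lower in all 4 libraries and 0 higher, against 29.8% lower over all genes. The G1 cyclins and their kinases were mixed (4 of 8 higher, 2 lower), as were the CDK inhibitors (2 of 5 higher, 1 lower). Among p53 targets 0 of 6 were higher and 3 lower.

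**Figure D3:**
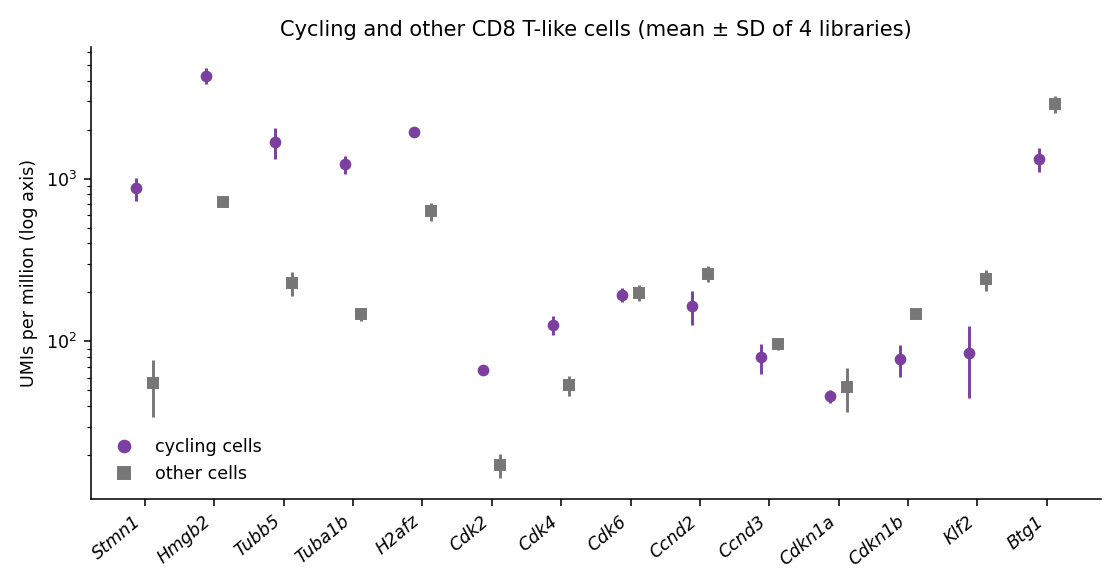
Level of broad and other cell cycle genes (y axis, CPM, log axis; mean ± SD of 4 libraries) in CD8 T-like cells called cycling and in the other cells of the class, by gene (x axis). Stmn1 stands at 870.1 in cycling and 55.6 in other cells, whereas Cdkn1b and Klf2 are lower in cycling cells.

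The first treatment question was whether AT38 changed how many cells of a type divided, a question raised by the study's title, which names cytotoxic T cells. For CD8 T-like cells no difference in the share of cycling cells was detected. The share was 19.1% in vehicle 1, 20.9% in vehicle 2, 22% in AT38 1 and 16.4% in AT38 2, so the vehicle libraries lay between the AT38 libraries. The log2 ratio of AT38 over vehicle was −0.07 ± 0.20 (SE, edgeR quasi-likelihood test, adjusted p = 0.996). The CD8 T-like cells made up 28.0% ± 9.62 of the cycling population in the vehicle group and 37.3% ± 7.00 in the AT38 group (SD, n = 2), with a log2 ratio of 0.39 ± 0.31 (edgeR adjusted p = 0.438).

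In 4 other classes the libraries of the groups did not overlap, without passing edgeR. In cDC2-like cells, which present antigen to CD4 T cells, the cycling share was 10.1% and 10.4% with vehicle and 7.52% and 7.47% with AT38, so both AT38 libraries were below both vehicle libraries. The log2 ratio was −0.45 ± 0.061 (edgeR adjusted p = 0.996), and limma on arcsine-transformed shares gave an adjusted p of 0.0190 for the same shares. The cycling cells behind them were 17 and 23 with vehicle and 17 and 13 with AT38. In cDC1-like cells the share was 26.7% and 28.3% with vehicle and 23.5% and 20% with AT38 (log2 ratio −0.32 ± 0.12, edgeR adjusted p = 0.996). These rest on 45 to 82 cDC1-like cells per library. Mast- or basophil-like cells were at 16.7% and 22.6% with vehicle and 12% and 15% with AT38 (log2 ratio −0.54 ± 0.26, edgeR adjusted p = 0.996), on 18 cycling cells in all. Macrophage-like cells were at 5.66% and 5.68% with vehicle and 5.86% and 5.92% with AT38, so that both AT38 libraries were higher by a small margin (0.05 ± 0.063, edgeR adjusted p = 0.996). For each of the 4 classes an exact permutation test (two-sided) gave 0.33, the smallest p that 2 against 2 libraries allow. The errors after these 4 log2 ratios were derived from the F statistic. They can be smaller than the counting error of so few cycling cells, so they do not show the precision of the ratios.

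In the other classes the groups overlapped. Treg-like shares were 8.33% and 11.6% with vehicle and 17.4% and 6.58% with AT38, and those of mature dendritic cells 3.90%, 5.95%, 12.2% and 2.86% in the same order. Of 12 classes tested, without the monocyte-like cells that had no cycling cell, edgeR called 0 shares and had 0 at an unadjusted p under 0.05, while limma on arcsine shares called 1 of 13.

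The balance of S to G2/M transcripts in cycling cells was compared next, as the log2 ratio of their thinned UMIs. In cycling CD8 T-like cells it was −1.06 in vehicle 1, −0.47 in vehicle 2, −0.26 in AT38 1 and −0.15 in AT38 2. Both AT38 libraries were nearer to equal amounts of S and G2/M transcripts than both vehicle libraries, a difference of 0.56 (exact two-sided permutation p = 0.33, the smallest possible). The counts behind it were 123, 285, 286 and 255 S UMIs and 256, 395, 343 and 283 G2/M UMIs. Without vehicle 1 the difference was 0.26. In the other 4 classes with at least 10 cycling cells per library (conventional CD4 T-like, macrophage-like, cDC1-like and cDC2-like cells) the groups overlapped. Their differences were 0.26 to 0.77 and their exact permutation p 0.667 to 1.

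The genes themselves were tested in each class on UMIs summed per library, over every gene with enough counts. In CD8 T-like cells 0 of the 40 members passed the edgeR test at an adjusted p under 0.05, where 0.0713% of the 9823 genes tested did (0.0204% higher and 0.0509% lower), and 9 had an unadjusted p under 0.05. The 22 G2/M genes all had a negative log2 fold change (AT38 over vehicle), with a median of −0.27, where the median of all genes tested was −0.0024. For 15 of the 22 both AT38 libraries lay below both vehicle libraries, as for 19.9% of all genes tested. The 13 S genes did not share the direction: 6 were positive and 7 negative, with a median of −0.0013. Without vehicle 1, 15 of the 22 G2/M genes were negative (median −0.12), and without vehicle 2, 4 of them passed the threshold, Mki67 among them (−0.64, edgeR adjusted p = 1.23e-04). Without AT38 1, Tubb5 passed at −0.37 (edgeR adjusted p = 0.0372). With the cell cycle genes kept in the clustering, 18 of the 22 were tested in the CD8 T-like class and 9 were negative. In that setting cycling CD8 T-like cells held 7 and 50 thinned G2/M UMIs with vehicle and 43 and 22 with AT38. In the main clustering they held 256 and 395 with vehicle and 343 and 283 with AT38. Cycling NK-like cells held 351 and 518 with vehicle and 428 and 390 with AT38 when cycle genes were kept. The setting thus placed many dividing cells outside the CD8 T-like class. In the main clustering, the cluster rich in cycling cells held a smaller part of the CD8 T-like class with AT38, as given above. Among markers of other cells in these sums, those of cDC2 cells were at 32.0 and 40.5 CPM with vehicle and 28.0 and 18.4 with AT38, of mature dendritic cells at 408 and 364 with vehicle and 297 and 348 with AT38, and of B cells at 12.3 and 9.46 with vehicle and 7.96 and 4.98 with AT38. Their part in the result was not tested.

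Top2a stood at 386 CPM in vehicle 1, 347 in vehicle 2, 295 in AT38 1 and 287 in AT38 2. Mki67 stood at 309, 214, 204 and 187 in the same order, where vehicle 1 was apart from the other libraries. The log2 fold changes were −0.31 ± 0.090 for Top2a (SE, edgeR adjusted p = 0.458) and −0.38 ± 0.14 for Mki67 (edgeR adjusted p = 0.831). The spindle genes Nusap1 (108, 101, 82.7 and 76.0 CPM) and Prc1 (64.0, 61.7, 49.1 and 42.1) had the smallest p of the other G2/M genes, at −0.37 and −0.45. Of the broad genes, the tubulin gene Tubb5 was at 932, 805, 717 and 656 CPM, in the order of vehicle 1, vehicle 2, AT38 1 and AT38 2, and Stmn1 at 429, 365, 363 and 310. For Tubb5, with the smallest adjusted p of the 40 genes here, the log2 fold change was −0.32 ± 0.089 (edgeR adjusted p = 0.363), and for Stmn1 it was −0.22 ± 0.095 (0.875).

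Genes of the replication fork gave small differences of both signs in the same cells. Pcna stood at 204 and 202 CPM with vehicle and 224 and 210 with AT38, and Mcm5 at 122 and 123 with vehicle and 115 and 117 with AT38. Their log2 fold changes were 0.11 ± 0.095 and −0.06 ± 0.11 (edgeR adjusted p = 0.963 and 0.979). The S gene with the smallest p was Gins2, at 8.62 and 20.2 with vehicle and 20.4 and 22.9 with AT38, where vehicle 1 alone was low (0.48 ± 0.26, edgeR adjusted p = 0.908).

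**Figure D4:**
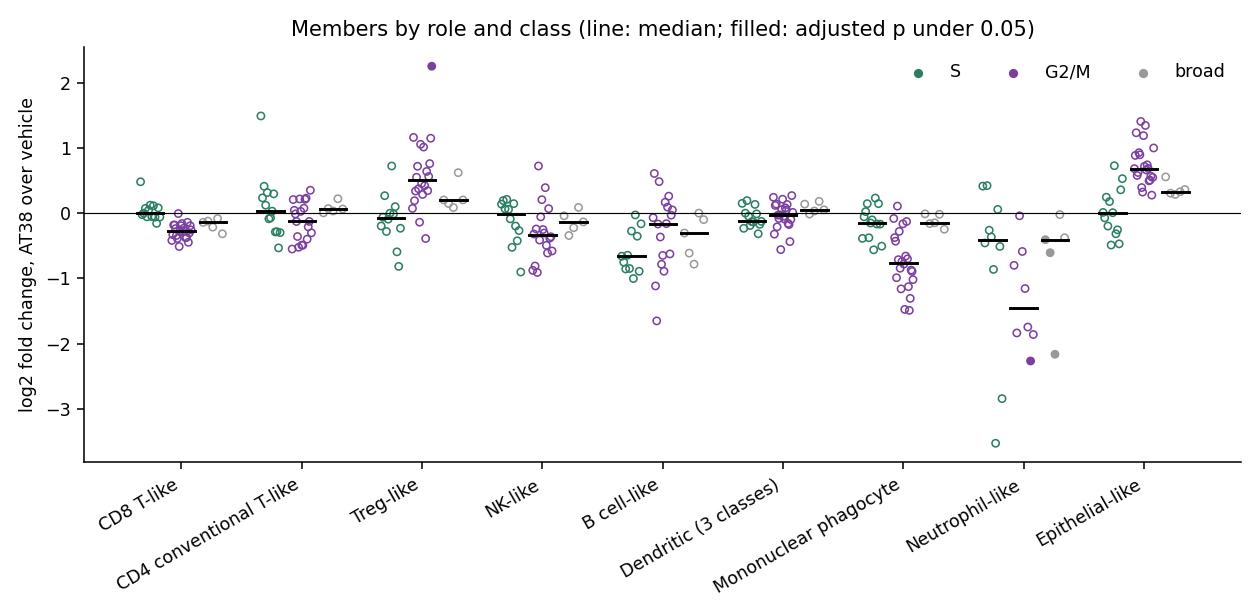
Log2 fold change of AT38 over vehicle (y axis) of each tested member by class (x axis) and role (S, G2/M, broad), with the median as a line and filled points for an edgeR adjusted p under 0.05. G2/M medians are −0.27 in CD8 T-like cells, 0.50 in Treg-like cells and 0.68 in epithelial-like cells, and the filled points are 1 in Treg-like cells and 4 in neutrophils.

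Treg-like cells, which restrain other T cells, held the 1 member that passed the test in a T or NK class with all 4 libraries in the fit. Ube2c encodes the ubiquitin-conjugating enzyme of the complex that ends mitosis (ENSMUSG00000001403, chromosome 2, 164769898 to 164778822, plus strand, GRCm38). It stood at 15.1 CPM in vehicle 1, 43.4 in vehicle 2, 184 in AT38 1 and 113 in AT38 2. Both AT38 libraries were above both vehicle libraries. The log2 fold change was 2.25 ± 0.30 (SE, edgeR adjusted p = 8.23e-10), on 180 UMIs in 49 to 87 cells per library. After thinning it was detected in 10 of 279 cells (3.58%), and the class held 4, 10, 12 and 5 cycling cells in vehicle 1, vehicle 2, AT38 1 and AT38 2. Of the 37 members tested in this class 1 was called, and of all 6109 genes 0.246% were (0.0655% higher). When each library was dropped in turn it passed every time, at 1.82 to 3.31. With each cell assigned by its own markers instead of its cluster it was 0.85 (edgeR adjusted p = 0.961), and with the cell cycle genes kept in the clustering it had too few counts to be tested. In that last setting 17 members were tested in the Treg-like class, against 37 in the main one. In the NK-like class 40 were tested, against 35. The promoter window of Ube2c, printed above, holds the CHR word and several CCAAT words.

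Of the 20 G2/M genes tested in Treg-like cells, Ube2c included, 18 were positive with a median of 0.50, where the median of all genes was 0.0032, and in 9 the groups did not overlap and AT38 was higher, as in 15.9% of all genes. Top2a was at 151 and 180 CPM with vehicle and 334 and 219 with AT38, and Mki67 at 112 and 126 with vehicle and 215 and 151 with AT38. Birc5, which encodes survivin, was at 24.1 and 57.3 with vehicle and 105 and 85.7 with AT38. In these 3 genes every AT38 library was above every vehicle library and AT38 1 was the highest. The log2 fold changes were 0.76 ± 0.20 for Top2a (edgeR adjusted p = 0.0675), 0.64 ± 0.23 for Mki67 (0.451) and 1.16 ± 0.31 for Birc5 (0.0694). Without AT38 1 the median of the G2/M genes was 0.12 with 11 of 20 positive, and Top2a alone was 0.39. With the cell cycle genes kept in the clustering, where 17 members were tested in the class, Top2a was at −0.09 (edgeR adjusted p = 0.993). With cells assigned by their own markers it was at 0.27 (0.977). Without AT38 2, Top2a passed the threshold at 1.04 (edgeR adjusted p = 0.00442).

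The S genes of Treg-like cells gave 3 positive and 9 negative values of 12 tested, with a median of −0.08. Pclaf was at 81.4 and 75.0 CPM with vehicle and 143 and 108 with AT38 (0.72 ± 0.26, edgeR adjusted p = 0.452). Tk1, a thymidine kinase, was at 27.1 and 29.6 with vehicle and 17.9 and 13.5 with AT38 (−0.82 ± 0.54, edgeR adjusted p = 0.911). Pcna (−0.01) and Mcm5 (−0.28) overlapped between groups. Of the broad genes, Tuba1b was at 229 and 205 with vehicle and 395 and 255 with AT38 (0.62 ± 0.19, edgeR adjusted p = 0.204), and H2afz was at 0.20 ± 0.15 with overlap (0.933). Gins2, Aurka and Plk1 had too few counts to be tested in this class. Among markers of other cells in these sums, 10 neutrophil markers were at 308 and 259 CPM with vehicle and 181 and 147 with AT38, and 8 B cell markers at 106 and 105 with vehicle and 80.5 and 13.5 with AT38. The 6 epithelial markers were at 81.4 and 96.7 with vehicle and 100.1 and 133 with AT38. The CD8 T cell list was at 2383 and 2363 with vehicle and 2614 and 2471 with AT38. The CD4 T cell list was at 2679 and 2774 with vehicle and 3213 and 3130 with AT38. The gamma-delta T, plasma and plasmacytoid dendritic cell lists were also higher in both AT38 libraries. The NK list (235 and 237 with vehicle, 184 and 110 with AT38) and the mature dendritic list (597 and 652, 513 and 537) were lower. Their part in the result was not tested.

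**Figure D5:**
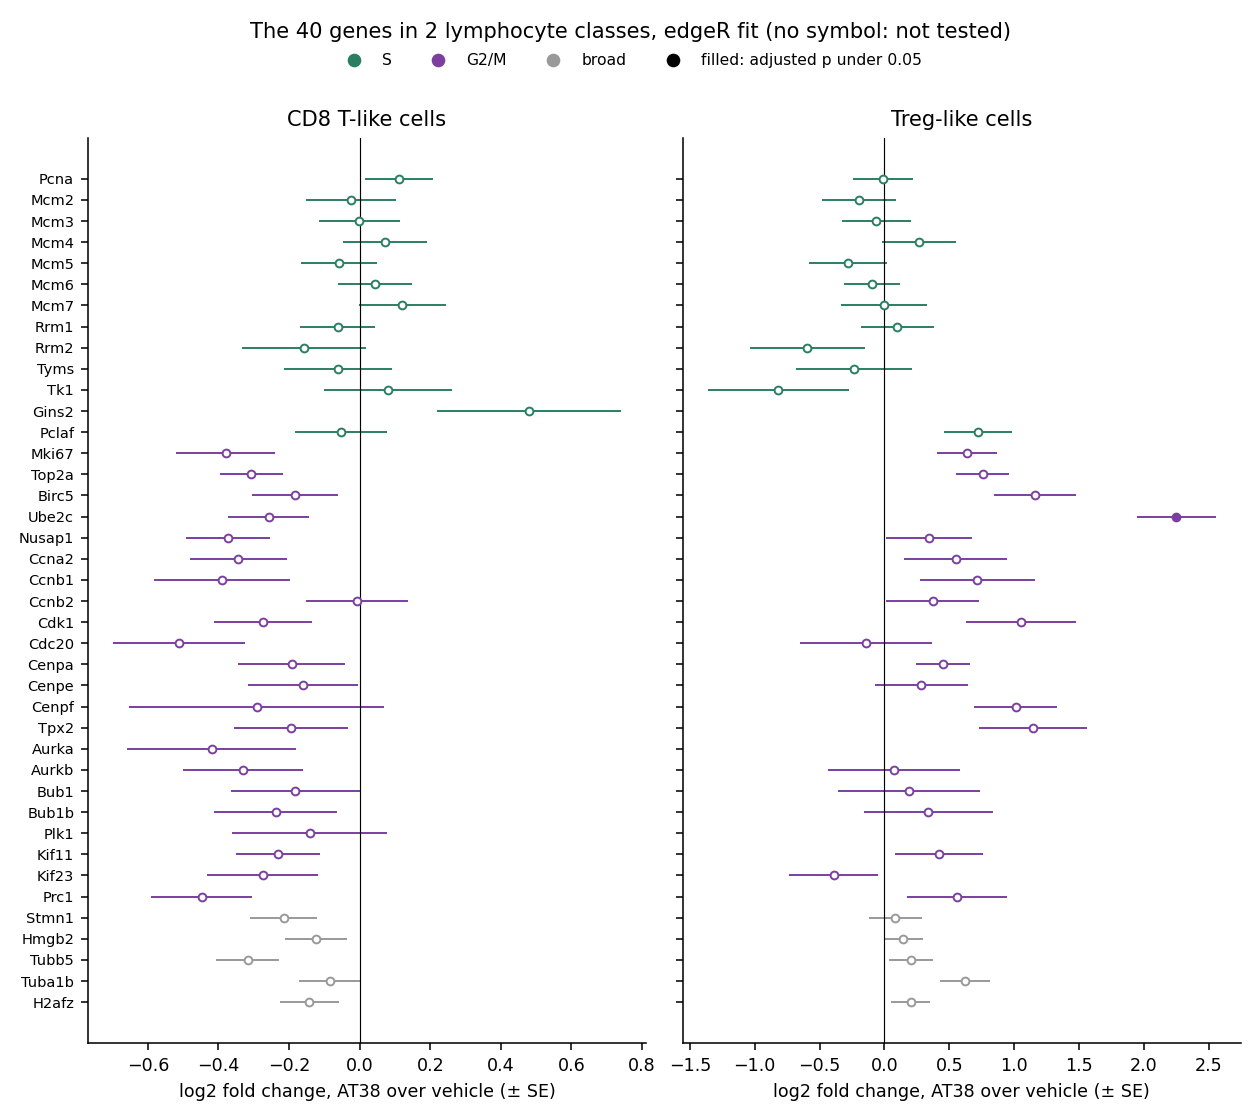
Log2 fold change of AT38 over vehicle ± SE (x axes) of each of the 40 genes (y axis) in CD8 T-like and in Treg-like cells, coloured by role, with filled points for an edgeR adjusted p under 0.05 and no symbol where a gene was not tested. All 22 G2/M genes lie below 0 in CD8 T-like cells and 18 of 20 lie above 0 in Treg-like cells.

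Whether the effect differed between classes was tested as an interaction, with the library as a term because the 2 classes share their libraries. CD8 T-like against Treg-like cells, a pair chosen after seeing the data, gave 2 members past the threshold, against 0.0919% of 8702 genes. The effect in CD8 T-like cells minus that in Treg-like cells was −2.49 ± 0.36 for Ube2c (edgeR adjusted p = 0.00165) and −1.05 ± 0.22 for Top2a (edgeR adjusted p = 0.0192). Of the 40 members 30 had a negative difference, with a median of −0.50. Leaving out vehicle 1, AT38 1 or AT38 2 left Ube2c alone, and leaving out vehicle 2 gave 7 calls. With up to 20% mitochondrial UMIs, at least 500 genes per cell, or Leiden resolution 0.5 there were 0 calls.

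The pairs with other classes gave no member past the threshold. Against conventional CD4 T-like cells the median difference was −0.21 and the smallest edgeR adjusted p 0.467, for Mki67 (−0.62 ± 0.17), with 0.0106% of all genes called and 4 members at an unadjusted p under 0.05. Against dendritic cells it was −0.15 and 0.882, with 0% of genes called and 3 members under 0.05 unadjusted. Against NK-like cells it was 0.04 and 0.997, also with 0% called and 3 members under 0.05 unadjusted.

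In neutrophils, 4 members fell with AT38, 3 of them broad genes, and 23 of the 40 had enough counts to be tested. In this class 5.26% of all genes tested were called (3.68% lower), so calls were far more frequent than in T cells. Hmgb2 encodes a DNA-bending protein (ENSMUSG00000054717, chromosome 8, 57511907 to 57515999, plus strand, GRCm38), and its promoter window is printed above. It stood at 667 and 597 CPM with vehicle and 454 and 448 with AT38, with no overlap. It fell by 0.61 ± 0.089 on the log2 scale (edgeR adjusted p = 1.19e-04). H2afz, at 354 and 327 with vehicle and 306 and 251 with AT38, fell by 0.41 ± 0.10 (edgeR adjusted p = 0.0173).

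The other 2 calls were genes with few counts. Stmn1 was at 31.6 and 14.4 CPM with vehicle and 4.53 and 6.25 with AT38, on 168 UMIs, and fell by 2.16 ± 0.45 (edgeR adjusted p = 0.0248). Tpx2, a spindle assembly factor, was at 8.26 and 3.92 with vehicle and 2.06 and 0.446 with AT38, on 44 UMIs, and fell by 2.27 ± 0.63 (edgeR adjusted p = 0.0334). For both, vehicle 1 was the highest library. Without vehicle 1, Stmn1 was at −1.54 (adjusted p = 0.0527, edgeR). Tpx2 lost its call without vehicle 2 (−2.77, edgeR adjusted p = 0.0891) and without AT38 2 (−1.61, 0.223). H2afz lost its call without vehicle 1 (−0.35), vehicle 2 (−0.47) or AT38 2 (−0.28), and Hmgb2 kept it with any 1 of the 4 libraries left out. With cells assigned by their own markers none of the 3 broad genes passed (Hmgb2 at −0.19, edgeR adjusted p = 0.904). DESeq2 called 1 member in neutrophils, Hmgb2 (DESeq2 adjusted p = 1.20e-05). Stmn1, Tpx2 and H2afz (DESeq2 adjusted p = 0.0530) were therefore not called by it. H2afz also lost its call with library totals in edgeR (0.0931). Stmn1 lost it in edgeR with up to 20% mitochondrial UMIs (adjusted p = 0.0872) and without doublet removal (0.0980).

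The make-up of the neutrophils differed between the groups as well. A small cluster, led by granule genes that precursors make (Ngp, Camp and Ltf), held 16 and 34 cells with vehicle and 11 and 5 with AT38, that is 1.57% and 2.04% against 1.17% and 0.60% of neutrophils. Its phase genes summed to 1659 CPM, against 176 to 301 in the other 4 neutrophil clusters, and vehicle 1 had the highest sum in it (3962). With that cluster left out, a setting chosen after seeing the data, 17 members were tested and 1 was called. Hmgb2 then fell by 0.34 ± 0.085 (edgeR adjusted p = 0.0280), Stmn1 was at −0.85 (0.218), H2afz at −0.13 (0.579), and 361 of 8281 genes were called in all. The larger clusters also shifted between groups: one held 25.2% and 29.5% of neutrophils with vehicle and 46.4% and 44.9% with AT38.

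Of the other neutrophil members, Pclaf was at 26.2 and 8.10 CPM with vehicle and 0.412 and 2.68 with AT38 (−3.53 ± 1.18, edgeR adjusted p = 0.263). Top2a (−1.75 ± 0.74), Mki67 (−1.16 ± 0.55) and Ube2c (−1.86 ± 0.57) were lower in both AT38 libraries than in both vehicle libraries and did not pass (edgeR adjusted p = 0.361, 0.395 and 0.0554). Mcm7 was at −0.86 (0.243) and Mcm5 at −0.26 with overlap. Pcna was at 85.4 and 89.4 with vehicle and 96.0 and 102 with AT38 (0.06 ± 0.12, edgeR adjusted p = 0.860). Both AT38 libraries lay above both vehicle libraries for 37.1% of the genes of this class and below for 14.1%.

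Mononuclear phagocytes, that is monocyte- and macrophage-like cells together, had 0 of 40 members called where 2.09% of 10435 genes were (1.26% higher and 0.824% lower). The G2/M genes were negative in 21 of 22, with a median of −0.76, and in 9 both AT38 libraries were below both vehicle libraries, as in 21.8% of all genes. Prc1 was at 14.4 and 8.65 CPM with vehicle and 6.18 and 2.18 with AT38 (−1.31 ± 0.41, edgeR adjusted p = 0.179), and Plk1 at 5.94 and 4.06 with vehicle and 1.90 and 1.45 with AT38 (−1.49 ± 0.50, 0.186). Mki67 was at 50.9 in vehicle 1 and 21.8 to 23.7 in the other 3 libraries (−0.70 ± 0.44, 0.658), so vehicle 1 alone was high. Top2a was at 74.1, 32.7, 37.3 and 16.7, with overlap (−0.87). Of the S genes, Pclaf was at −0.56 (edgeR adjusted p = 0.293), Pcna at 0.23 (0.433) and Mcm5 at −0.38 (0.656), and of the broad genes Tubb5 was at −0.25 and Hmgb2 at −0.16. The make-up of the class differed between groups: 10 macrophage markers summed to 7948 and 9317 CPM with vehicle and 12771 and 12784 with AT38, and 8 monocyte markers to 4505 and 4398 with vehicle and 3575 and 3585 with AT38. Their part in the result was not tested. Without vehicle 2, 3 members passed (Mki67 at −1.20, Nusap1 at −1.77 and Tpx2 at −1.43), and without AT38 1 another 3 (Prc1 at −2.31, Pclaf at −1.04 and Tubb5 at −0.44). In macrophage-like cells alone, added after seeing the data, 0 members and 221 of 10162 genes were called.

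In epithelial-like cells, which come through the CD45 sort as a remainder of 39 to 79 cells per library, all 22 G2/M genes were positive with a median of 0.68, where the median of all 10283 genes was −0.02. None of the 40 passed, as did 0.0194% of all genes, and 7 had an unadjusted p under 0.05. Birc5 was at 75.5 and 50.01 CPM with vehicle and 124 and 158 with AT38 (1.23 ± 0.28, edgeR adjusted p = 0.588), and Cenpa, the centromeric histone, at 94.1 and 58.1 with vehicle and 172 and 158 with AT38 (1.19 ± 0.29, 0.625). Mki67 was at 51.4, 64.2, 38.4 and 141 and Top2a at 107, 151, 77.3 and 220, so AT38 2 alone was high. Without AT38 2, 15 of the 22 were positive with a median of 0.29, and without AT38 1 a single member passed (Cenpf at 1.93). In 13 of the 40 members both AT38 libraries were above both vehicle libraries and in 4 below, against 12.7% and 23.5% of all genes. The S genes were divided (7 positive, 6 negative, median 0.01), with Pclaf at 0.73 (edgeR adjusted p = 0.904), Mcm6 at −0.49 (0.905), Pcna at −0.32 (0.922) and Mcm5 at 0.18 (0.977). The broad genes H2afz and Tubb5 were at 0.55 and 0.36. The fibroblast markers of the class, given above, were lowest in vehicle 1 (655 CPM), and their part was not tested.

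NK-like and B cells had no member past the threshold, where 0.0144% and 0.0367% of all genes passed. In NK-like cells 14 of 18 tested G2/M genes were negative (median −0.34) and the S genes were divided (6 and 6), and 5 members had an unadjusted p under 0.05. Both AT38 libraries were below both vehicle libraries for 10 of 35 members and above for 2, against 19.2% and 15.3% of all genes. Pclaf was at 121 and 137 CPM with vehicle and 89.6 and 87.4 with AT38 (−0.53 ± 0.18, edgeR adjusted p = 0.797), and Top2a at 190 and 205 with vehicle and 126 and 171 with AT38 (−0.38, 0.831). Tyms was at −0.90 (edgeR adjusted p = 0.831), Ccna2 at −0.91 (0.831), Hmgb2 at −0.34 (0.831), Stmn1 at −0.22 (0.912), Mki67 at −0.49 (0.891), Mcm5 at 0.21 (0.979) and Pcna at 0.14 (0.983). Hmgb2 passed without vehicle 1 (−0.50), and Mki67 (−1.19) and Ube2c (−1.64) passed without AT38 2. Several marker lists of other lymphocytes in the NK-like class were lower in both AT38 libraries than in both vehicle libraries. The gamma-delta T cell list was not, at 97.9 and 113 CPM with vehicle and 103 and 128 with AT38. The CD4 T cell list was at 244 and 213 CPM with vehicle and 161 and 167 with AT38, the Treg list at 440 and 404 with vehicle and 292 and 313 with AT38, and the ILC2 list at 561 and 505 with vehicle and 328 and 403 with AT38. Their part in these values was not tested.

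In B cells all 11 tested S genes were negative, with a median of −0.66, and 11 of 17 G2/M genes. Of the 33 members tested, 3 had an unadjusted p under 0.05, and in 7 both AT38 libraries were below both vehicle libraries, as in 22% of all genes. Vehicle 1 alone was high for many: Top2a was at 172 CPM there and at 40.3 in vehicle 2, 70.7 in AT38 1 and 59.0 in AT38 2, and Hmgb2 at 1003 there and at 490 to 557 in the others. Ccnb2 had no such pattern, at 23.2 and 19.2 with vehicle and 8.36 and 2.95 with AT38 (−1.65 ± 0.46, edgeR adjusted p = 0.331, 79 UMIs). Mcm6 was at −0.85 (edgeR adjusted p = 0.806), Mcm4 at −0.86 (0.819), Cenpa at −0.37 (0.927), Hmgb2 at −0.61 (0.939), H2afz at −0.31 (0.969) and Mcm5 at −0.65 (0.956). Top2a, Mki67 and Pcna were at −0.63, −0.16 and −0.03 (0.999 each). Single libraries decided the direction here: without vehicle 1, 3 members passed upward (Nusap1 at 3.75, Pclaf at 1.59 and Tuba1b at 0.69), and without vehicle 2, 10 passed downward, from −0.63 for H2afz to −1.91 for Ccna2.

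Conventional CD4 T-like cells and dendritic cells gave no member past the threshold either, where 0.0238% and 0.0269% of all genes passed (0.0119% of the CD4 class in each direction), and 2 and 0 members had an unadjusted p under 0.05. In the CD4 class the G2/M genes were divided (8 positive and 11 negative of 19, median −0.13), as were the S genes (7 and 6, median 0.03). Pcna was at 116 and 134 CPM with vehicle and 154 and 148 with AT38 (0.29 ± 0.13, edgeR adjusted p = 0.656), and Gins2, on 38 UMIs, at 1.49 ± 0.62 (0.652). Mki67 was at 0.23 (0.818), Top2a at −0.13 (0.895), Mcm5 at 0.31 (0.830), Cenpf at −0.49 (0.788), Nusap1 at −0.40 (0.790), Tuba1b at 0.22 (0.725) and Hmgb2 at 0.07 (0.916). Both AT38 libraries were above both vehicle libraries for 6 of 37 members and below for 6, against 15.5% and 21.4% of all genes. In the dendritic class the medians were −0.03 for G2/M and −0.13 for S genes, and the libraries separated upward for 1 member and downward for 3 of 40, against 11.8% and 26.9% of all genes. Mki67 was at 62.5 and 68.7 with vehicle and 65.5 and 71.9 with AT38 (0.13 ± 0.12, edgeR adjusted p = 0.863). Cenpa was at 0.21 (0.745), Cdc20 at −0.56 (0.757), Mcm2 at −0.23 (0.850), Mcm4 at 0.19 (0.853), Tuba1b at 0.18 (0.766), H2afz at 0.14 (0.80), Pcna at 0.13 (0.869), Top2a at −0.10 (0.932) and Mcm5 at −0.05 (0.985). Without AT38 1, Mcm6 (−0.56) and Rrm2 (−1.02) passed. Tested one by one after seeing the data, cDC1-like, cDC2-like and mature dendritic cells gave 0 members each, with 13, 44 and 0 genes called.

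The wider machinery was followed with 12 lists of 144 genes outside the 40. In CD8 T-like cells 0 of them passed the threshold in any list. All 22 genes of spindle and cytokinesis were negative there, with a median of −0.31, and 8 had an unadjusted p under 0.05. Of 15 kinetochore and checkpoint genes 1 was positive (median −0.15), of 9 condensin and cohesin genes 1 (median −0.23), and of 11 genes of entry into and exit from mitosis 1 (median −0.21). The replication lists were divided: 14 of 22 genes of DNA synthesis at the fork were positive (median 0.08), 6 of 14 of origin licensing and firing (median −0.06) and 5 of 9 of replication-coupled chromatin (median 0.01). Klf2 was at −0.44 ± 0.10 (edgeR adjusted p = 0.103), Cdkn1b at −0.19 ± 0.11 (0.908) and Cdkn1a at −0.10 ± 0.18 (0.979). In Treg-like cells 0 passed as well, and all 9 tested spindle genes were positive (median 0.54).

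In neutrophils 8 genes of the lists passed, in a class where 5.26% of all 8391 genes tested did (3.68% lower and 1.57% higher). The lists hold 144 genes, of which those with enough counts were tested. The clusters of the class also shifted between the groups, as given above, and their part was not tested. Of the quiescence-associated genes 3 of 10 fell: Klf2 by 0.67 ± 0.11 on the log2 scale (edgeR adjusted p = 8.33e-04), Ccng2 by 0.40 ± 0.12 (0.0490) and Btg1, an antiproliferative factor, by 0.27 ± 0.079 (0.0491). Cdkn1b fell by 0.44 ± 0.12 (edgeR adjusted p = 0.0342) and Ccnd3 by 0.53 ± 0.14 (0.0212), while Ccnd2 rose by 0.50 ± 0.13 (0.0202) and the p53 target Ccng1 by 0.46 ± 0.13 (0.0329). Smc2, a condensin subunit, fell by 1.66 ± 0.44 (edgeR adjusted p = 0.0281). In mononuclear phagocytes, where 2.09% of all genes passed, 1 gene of the lists did. It was the quiescence-associated Btg2, which rose by 0.44 ± 0.088 (edgeR adjusted p = 0.0158).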

How the data were processed

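The authors deposited, per library, a raw matrix of UMI counts (genes by cell barcodes) produced with Cell Ranger 3.1.0 against mm10 per the submitters' processing notes; the annotation release is not given in the sources used here. From these counts, barcodes were kept if they had 200 genes or more, 500 UMIs or more and no more than 10% of UMIs from mitochondrial genes. The highest scrublet scores were removed at 0.8% per 1000 barcodes (100, 309, 160 and 114 barcodes), since its automatic threshold called only 0 to 6 per library. Counts were scaled to 10000 and log-transformed. Clustering left out the 40 genes, the pathway lists and histone genes, and used 2000 variable genes, 30 principal components, 15 neighbours and Leiden resolution 1, with T and NK clusters clustered again (scanpy 1.11.5). A cluster took the class whose markers scored highest when at least 3 were detected in 10% of its cells, unless its 10 leading genes went against it; these thresholds were worked out with clusters in view.

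For the call of cycling cells, each cell was thinned to 1000 UMIs, and cells with fewer (152 to 242 per library) were left out. Genes were tested with edgeR 4.0.16 (quasi-likelihood, robust, TMM, filterByExpr, two-sided) on class sums of all cells, with Benjamini-Hochberg adjustment over all genes tested and a threshold of 0.05. Adjusted p-values in parentheses after a log2 fold change come from this test. Shares used the edgeR quasi-likelihood test with an offset for the cells of the class. That fit had no dispersion trend, robust option, TMM or filterByExpr. R 4.3.3, limma 3.58.1 and DESeq2 1.42.0 served the alternatives. On simulated CD8 T-like counts the gene test recovered 95 of 102 genes changed by 1 on the log2 scale and 98 of 98 changed by 2, with 5 false calls among 9599. The simulation used a single fixed dispersion for all genes and changed only genes above a minimum level. Changes smaller than 1 were not simulated, so it does not give the power of the tests on the real libraries. Errors of levels and shares are standard deviations over libraries. Those of log2 fold changes and ratios, called SE, are the value divided by the square root of its F statistic. Confidence intervals are exact binomial (95%). Reads carry UMIs, so floors and intervals cover counting error only.

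The 40 genes, their roles, the pathway lists and the tests were chosen with earlier results of these data known. Genes were named by a rule: members past the threshold in a class, the 2 of each role with the smallest p in each class, Mki67, Top2a, Pcna and Mcm5 in every class, up to 2 genes past the threshold per pathway list, and Cdkn1a, Cdkn1b and Klf2 in CD8 T-like cells. Ccng2 and Btg1 in neutrophils, and further genes of the levels and of the cycling cells, were named after their values were seen. Alternatives added after seeing the data were neutrophils without a granule-gene cluster, macrophage-like cells and each dendritic class alone, and CD8 T-like against Treg-like cells.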

Additional observations from a re-analysis of the deposited data

Results flagged for a closer look

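The summed level of the 22 G2/M genes differed between the groups with opposite signs in 2 T cell classes, and this difference of sums was not tested. In CD8 T-like cells the sum was 2465 and 1904 CPM in the vehicle libraries and 1747 and 1747 in the AT38 libraries, a difference of AT38 minus vehicle of −437.5, with each AT38 library lower. Without vehicle 1 it was −156.7. In Treg-like cells it was 784 and 1232 with vehicle and 1933 and 1294 with AT38, a difference of 605.4, with each AT38 library higher, AT38 2 by little over vehicle 2. Without AT38 1 it was 286, and without vehicle 1 it was 381.5.

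Gene by gene, the difference between these classes was tested as an interaction, and 2 of the 40 genes passed (edgeR, adjusted p under 0.05). Of all 8702 genes tested, 0.0919% passed. The effect in CD8 T-like cells minus that in Treg-like cells was −2.49 on the log2 scale for Ube2c (adjusted p = 0.00165, edgeR) and −1.05 for Top2a (adjusted p = 0.0192, edgeR). Of the pairs with conventional CD4 T-like, NK-like and dendritic cells none gave a call. The pair with Treg-like cells was chosen after the fold changes were seen, and Treg-like cells had 49 to 87 cells per library. Neither gene passed with a looser mitochondrial limit, a higher minimum of genes per cell or a lower clustering resolution. Neither passed with cycle genes kept in clustering or with cells assigned by their own markers. Keeping cycle genes moved cycling cells out of the CD8 T-like class and left 17 members tested in the Treg-like class.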

How the results depend on the processing

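Summed over 9 classes, 692 genes and 5 members were called. DESeq2 called 411 genes and 2 members, no filter on low counts 1585 and 24, and classes by each cell's own markers 60 and 0 (8 classes). Leaving out 1 library gave 471 to 1596 genes and 6 to 28 members, with 1596 genes and 14 members without AT38 replicate 1, and 28 members without vehicle replicate 2. With 1 library in a group, its spread is taken from the other group. Replicate numbers as a block gave 1480 genes and 30 members. With 2 numbers per group, same-numbered libraries deviated together with r from −0.046 to 0.375 over the classes, so they share a number and are not taken as pairs.

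Among 1328 values of named genes over the alternatives, 83 changed sign. Stmn1 in neutrophils reversed, to 0.15, in classes by own markers, where Hmgb2 was at −0.19 (edgeR adjusted p = 0.904). In 1 of 13 classes limma on arcsine shares called a cycling share, and edgeR in 0 of 12. The S to G2/M difference was 0.87 in CD4 T-like cells without doublet removal, 0.13 in CD8 T-like cells with cycle genes kept in clustering, and −0.19 in macrophage-like cells by own markers. Keeping cycle genes in the clustering moved many cycling cells out of the CD8 T-like class, as given above. Leaving out 1 library gave 0.26 to 0.85 for CD8 T-like, −0.073 to 0.60 for CD4 T-like, −0.12 to 1.66 for macrophage-like, −0.40 to 1.35 for cDC1-like and −0.16 to 1.07 for cDC2-like cells. For CD8 T-like against Treg-like cells (2 members called), leaving out 1 library gave 1 to 7. There were 0 with up to 20% mitochondrial UMIs, at least 500 genes per cell, cycle genes kept in clustering, resolution 0.5 or own markers. The cause was not tested for any of these. The other pairs gave 0 calls without any 1 of the libraries.

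Depth limits the smaller classes: Ube2c in Treg-like cells rests on 180 UMIs and Tpx2 in neutrophils on 44. Pooled mice hide the spread between animals, and 2 libraries per group cannot give an exact p under 0.33.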

Other observations

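Clusters left without a name held 124 of the cycling cells, 37 and 23 in the vehicle libraries and 49 and 15 in the AT38 libraries. A T cell sub-cluster with macrophage transcripts (C1qa, C1qb and Apoe among its leading genes) had 50 cycling cells of 238 (21.0%) at a median of 10954 UMIs per cell. A T cell sub-cluster with neutrophil transcripts (S100a8 and S100a9) had 27 of 91 (29.7%) at a median of 11518 UMIs. A cluster of low depth (median 935 UMIs) had 31 cycling cells of the 209 that reached 1000 UMIs (14.8%), and a T cell sub-cluster led by Klra6, Klra1 and Ly6c2 had 16 of 409 (3.91%).

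Genes of resting cells were also compared between cycling and other cells outside the CD8 T-like class, as levels with no test. Of 10 quiescence-associated genes, 7 were lower in cycling than in other cells in all 4 libraries in conventional CD4 T-like cells (16.3% of all genes compared) and 1, Rbl2, was higher in all 4. In dendritic cells 4 were lower in all 4 libraries (18.8%), and in mononuclear phagocytes 4 were (12.6%). In NK-like cells 4 of 9 were (18.7%). The 5 broad genes were higher in cycling cells in all 4 libraries in each of these classes.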
